A study of Homo sapiens with 30 samples.

Results

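The UBE2 genes encode ubiquitin-conjugating enzymes, and they were taken from the rows of the deposited count tables whose symbol is UBE2, a letter and an optional number. Of the 33 rows that match, 32 genes are described, of 27630 in the tables. RNA had been measured in HEK293FT, a human embryonic kidney line grown asynchronously, in 4 groups of 2 libraries: the nuclear and the cytosolic fraction, and the RNA pulled down after the peroxidase APEX2 had tagged the neighbourhood of lamin B1, once from native and once from paraformaldehyde-fixed (PFA) material. Per the labels, the cells of all 4 groups had been transfected with a construct of APEX2 and lamin B1, so no group comes from untransfected cells. Every library was made from Trizol RNA depleted of ribosomal RNA. The labels do not say whether the libraries of a group came from separate cultures, so p-values measure only the spread between these libraries, which may be technical.

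Ubiquitin is passed along a chain of enzymes. An E1 enzyme activates it, an E2 enzyme such as a UBE2 protein takes it over as a thioester on a cysteine, and an E3 ligase brings the loaded E2 to the substrate. The E2 often sets whether 1 ubiquitin or a chain is built and which lysine links the chain, and a few E2 enzymes carry a ubiquitin-like protein such as NEDD8 or ISG15 instead. In nuclei these enzymes act in histone ubiquitination, DNA repair and protein turnover, and at the endoplasmic reticulum, which is continuous with the outer nuclear membrane, others act in the removal of misfolded proteins.

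Libraries held 2321291 to 8557777 counts, and the UBE2 genes took a small share of them. The share was 0.102% and 0.109% in the nuclear libraries and 0.241% and 0.197% in the cytosolic ones. It was 0.155% and 0.161% in the native lamina libraries and 0.186% and 0.158% in the PFA ones. The 95% Wilson intervals of the nuclear shares reached at most 0.111%, and those of the other 6 libraries began at 0.152% or above, and such intervals cover counting error only. LMNB1 itself took 0.304% to 0.520% of counts in the fractions and 2.96% to 9.49% in the lamina libraries. Markers fixed for the cell line (LIN28B, PAX2, LHX1, NEFL, NEFM and VIM) were counted in every library except PAX2, which was at 0 in cytosolic replicate 2. Of the erythroid markers HBG1, HBG2, HBE1 and GYPB were at 0 in all 8 libraries, and GATA1, KLF1 and TAL1 had 0 to 45 counts. Among colon markers CDX2 had 60 to 313 counts and VIL1 0 to 74, LGALS4 and CDH17 0 to 9, while CDX1, KRT20 and CEACAM5 had 2 or fewer. The nuclear-retained RNAs MALAT1, NEAT1 and KCNQ1OT1 were higher in the nuclear fraction than in the cytosol (3 of 3 tested), and the cytosolic messengers GAPDH, ACTB, EEF1A1, RPLP0 and TMSB10 were lower (5 of 5). In the PFA lamina these 3 nuclear RNAs were lower than in the nuclear fraction, and 0 passed the test against the cytosol, with 3 positive values. In the native lamina 2 were higher than in the cytosol, and 0 passed against the nuclear fraction. Against the nuclear fraction, 2 of the 5 cytosolic messengers were higher in the PFA lamina and 1 in the native lamina. Against the cytosol, 2 were lower in the PFA lamina and 4 in the native lamina.

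Promoter stretches of 3 genes are printed because UBE2M, UBE2S and UBE2T had the highest cytosolic levels per kilobase among the UBE2 genes, and because all 3 fell in the same comparison and rose in another. Each holds the 250 bases before the start site in RefSeq on build GRCh38.p14, minus strand, 5′ to 3′, at chr19:58558612-58558861 for UBE2M, chr19:55407789-55408038 for UBE2S and chr1:202341937-202342186 for UBE2T. Capitals mark the GC box GGGCGG, the CCAAT box CCAAT and the CHR element TTTGAA, a motif known from cell cycle promoters, on either strand.
UBE2M: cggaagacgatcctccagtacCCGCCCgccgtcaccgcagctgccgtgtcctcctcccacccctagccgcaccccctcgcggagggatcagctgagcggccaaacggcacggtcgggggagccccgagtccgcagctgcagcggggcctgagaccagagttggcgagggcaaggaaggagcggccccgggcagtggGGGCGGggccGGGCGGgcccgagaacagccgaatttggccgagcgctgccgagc
UBE2S: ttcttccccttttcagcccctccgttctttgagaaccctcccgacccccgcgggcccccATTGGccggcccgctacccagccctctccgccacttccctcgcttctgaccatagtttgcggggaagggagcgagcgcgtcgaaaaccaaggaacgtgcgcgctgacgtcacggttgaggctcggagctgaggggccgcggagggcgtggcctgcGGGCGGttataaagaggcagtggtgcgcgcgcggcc
UBE2T: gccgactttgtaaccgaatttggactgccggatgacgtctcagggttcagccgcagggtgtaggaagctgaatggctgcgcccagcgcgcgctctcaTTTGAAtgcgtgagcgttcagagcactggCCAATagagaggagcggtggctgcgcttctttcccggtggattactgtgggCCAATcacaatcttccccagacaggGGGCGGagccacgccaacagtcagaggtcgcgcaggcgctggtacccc
UBE2M carries GC boxes alone, UBE2S a GC box and a CCAAT box read on the other strand, and UBE2T all 3 motifs. Of the 32 genes 26 matched the promoter table by symbol, with 38 windows of 300 bases that run 50 bases past the start. The GC box was in 76.3% of these windows against 45.0% of all 35116 windows, the CCAAT box in 28.9% against 34.6% and the CHR element in 7.89% against 15.2%. Each motif was counted on its own on both strands, so letters shared by overlapping motifs count for each. The median window held 34 CG dinucleotides against 14 over all windows. These are matches of letters and not measured binding.

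All but 1 of the UBE2 genes could be tested. UBE2U had 3 counts in native lamina replicate 2 and 0 in the other 7 libraries, and it did not pass the filter on low counts. A floor of 3 counts stands for 0.351 to 1.29 CPM, which are counts scaled to the size of the library. Levels below are CPM after TMM scaling, a share of each library's RNA, so they do not give amounts of RNA per cell. Fold changes are log2 values with their standard error (SE) from edgeR's quasi-likelihood test, and a call is a Benjamini-Hochberg adjusted p under 0.05 over the 16504 genes tested. Of the 31 tested genes 24 were called in at least 1 of the 6 comparisons and 7 in none.

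Per kilobase of exon, levels spanned a wide range. In the cytosolic fraction UBE2M, which loads NEDD8 onto cullins, stood at 90.8 TMM-scaled RPKM (counts scaled to exonic length and library size), followed by UBE2S (58.8), UBE2T (55.6) and UBE2E1 (54.7). The lowest tested were UBE2D4 (6.82), UBE2D1 (6.34), UBE2F (5.66) and UBE2W (2.71). The order differed in the nuclear fraction, where UBE2Z was at 25.2 ± 4.98 (SD, n = 2), UBE2M at 23.8 ± 13.4 and UBE2D2 at 21.8 ± 2.21 on the same scale. These 3 nuclear levels did not differ beyond their spread.

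The first comparison asks whether UBE2 messengers took a smaller or larger share of the nuclear than of the cytosolic RNA. It does not give how the molecules of a gene are split between nucleus and cytosol. In the nuclear fraction 21 of the 31 were lower than in the cytosolic fraction and 1 was higher. Among all genes tested 21.2% were lower and 26.1% higher. The median of the UBE2 genes was -1.09 on the log2 scale, against 0.13 over all genes. A negative value was found in 30 of 31, against 7634 of the 16504 genes tested. The values by gene are shown in the plot of both fractions.

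**Figure D1:**
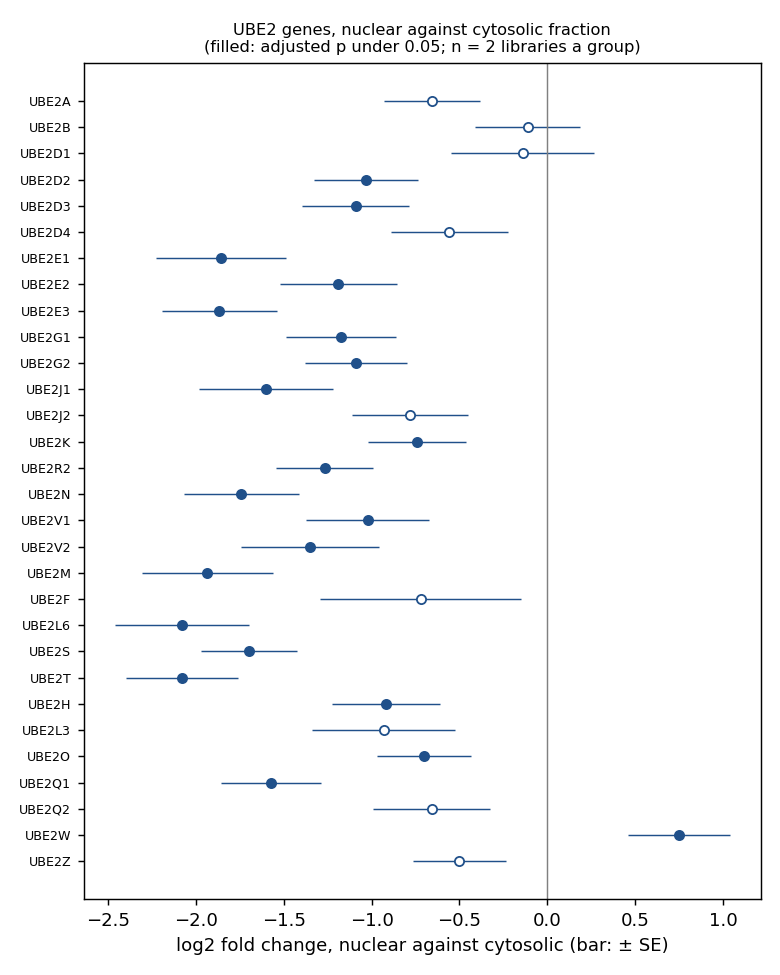
Log2 fold change of 30 UBE2 genes between the nuclear and the cytosolic fraction, ordered by role, with bars of 1 SE and 2 libraries in each group. Filled points passed the test, and UBE2W stands alone to the right of 0 while UBE2T and UBE2L6 lie farthest to the left at -2.08.

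UBE2T, the E2 of the Fanconi anaemia pathway, was at 10.6 and 13.4 CPM in the nuclear libraries and at 46.7 and 54.8 in the cytosolic ones. UBE2S, which extends chains for the anaphase-promoting complex, was at 19.3 and 23.9 in nuclear and 72.2 and 67.9 in cytosolic libraries. Neither gene's groups overlapped, and the log2 changes were -2.08 (SE 0.32, adjusted p = 0.00078 by edgeR) and -1.70 (SE 0.27, adjusted p = 0.000864 by edgeR).

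Among the E2 enzymes of ubiquitin-like proteins UBE2L6 and UBE2M fell. UBE2L6, the E2 of ISG15, was at 5.60 and 6.19 CPM in the nuclear and 22.5 and 27.5 CPM in the cytosolic libraries, a change of -2.08 (SE 0.38). UBE2M was at 21.8 and 50.7 against 112 and 164 CPM and changed by -1.93 (SE 0.37), with the nuclear libraries far apart but both under both cytosolic ones. UBE2F, the other NEDD8 enzyme, had a value of -0.72 (SE 0.57) that did not pass.

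All 3 genes of the UBE2E family, nuclear-imported E2 enzymes with an extended amino terminus, were lower in the nuclear fraction (all genes 21.2%). UBE2E1 was at 29.7 and 28.5 CPM in nuclear and 110.4 and 101 in cytosolic libraries. UBE2E3 was at 10.3 and 14.3 against 50.7 and 38.5, and UBE2E2 at 15.6 and 12.9 against 28.5 and 36.6. The changes were -1.86, -1.86 and -1.19 on the log2 scale. The UBE2D family, promiscuous E2 enzymes that start chains with many ligases, was split. UBE2D2 (58.1 and 67.0 against 123 and 133 CPM) and UBE2D3 (67.1 and 95 against 154 and 191 CPM) fell by 1.03 and by 1.09 on the log2 scale. UBE2D1 was at 17.1 and 13.2 against 13.4 and 20.3 CPM, with values that overlapped between the groups, and UBE2D4 at 20.1 and 17 against 33.8 and 20.5 CPM. Neither passed the test.

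Of the enzymes that build degradative chains or act at the endoplasmic reticulum 5 of 6 fell. Among all UBE2 genes 21 of 31 did, and 21.2% of all genes tested. UBE2J1, a tail-anchored enzyme of the endoplasmic reticulum membrane, was at 21.8 and 26.3 CPM in nuclear and 77.8 and 67.9 in cytosolic libraries, a change of -1.60 (SE 0.38). UBE2R2, a partner of cullin-RING ligases, was at 38.6 and 44.5 against 96.8 and 103 CPM. UBE2G1 (41.7 and 39.3 against 97.9 and 85.2 CPM) and UBE2G2 (41.1 and 50.7 against 93.1 and 102 CPM), which extend chains for cullin-RING and endoplasmic reticulum ligases, changed by -1.18 and -1.09. UBE2K was at 80.5 and 86.4 against 143 and 136 CPM and changed by -0.74, the smallest called size in this group. UBE2J2 did not pass at -0.78 (SE 0.33, adjusted p = 0.0662 by edgeR).

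UBE2N, which builds the chains used in signalling and DNA repair, was at 27.4 and 31.4 CPM in nuclear and 101 and 95.2 in cytosolic libraries, with a change of -1.74. Its catalytically inactive partners UBE2V1 and UBE2V2 fell as well. UBE2V2 was at 9.80 and 13.7 against 26.7 and 33.4 CPM, and UBE2V1 at 46.1 and 65.6 against 103 and 123. The value of UBE2V1 is uncertain, since 2066 of its 4304 exonic bases are shared with the readthrough gene TMEM189-UBE2V1 and reads there were counted for both.

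Among the remaining genes UBE2Q1, an E2 with a long amino-terminal extension, was at 20.4 and 26.3 CPM in the nuclear and 67.9 and 70.8 in the cytosolic libraries, a change of -1.57 (SE 0.29). UBE2H was at 31.6 and 27.8 against 59.5 and 52.7 CPM and fell by 0.92 on the log2 scale. UBE2O, a large enzyme that joins E2 and E3 activity, was at 93.7 and 109 against 169 and 160.3 CPM and fell by 0.70. The calls of UBE2K and UBE2O were lost under 8 and 10 of the 16 alternative settings.

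UBE2W, which attaches ubiquitin to protein amino termini, was the 1 gene called higher in the nuclear fraction. It was at 44.5 and 38.0 CPM in the nuclear libraries and 21.5 and 27.7 in the cytosolic ones, without overlap, and the change of 0.75 (SE 0.29, adjusted p = 0.0469 by edgeR) was close to the threshold. The call was lost with total counts as the scale, without the filter, with DESeq2's Wald test and in 6 of 8 fits that left out 1 library. UBE2B, a RAD6-type E2 that ubiquitinates histones and PCNA, was at 33.8 and 40.5 against 36.6 and 43.8 CPM, and its overlapping groups gave -0.11 (SE 0.30). Its close relative UBE2A was at 37.7 and 40.2 against 67.0 and 55.6 CPM, with -0.66 (SE 0.27), and did not pass either. UBE2L3, UBE2Q2 and UBE2Z had values of -0.93, -0.66 and -0.50 and were not called.

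Calls on 9 genes held in all 16 alternatives of this comparison: UBE2E1, UBE2E3, UBE2L6, UBE2M, UBE2N, UBE2Q1, UBE2R2, UBE2S and UBE2T. The header of cytosolic replicate 1 names nuclear replicate 1 as its output and cytosolic replicate 1 as its input, and without that library 16 genes were lower. Without nuclear replicate 1, 10 were lower, and without cytosolic replicate 2, 11.

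The next comparisons ask where the RNA near the lamina stands relative to each fraction, and they share the fraction libraries. In the native preparation 10 of the 31 UBE2 genes were lower than in the cytosolic fraction and 0 were higher by edgeR's test, with 21 lower and 0 higher at an unadjusted p under 0.05. Over all genes 6.77% were lower and 6.99% higher by the adjusted p, and 2401 and 2829 of 16504 at the unadjusted threshold. The median was -0.91 against 0.10 over all genes, and all 31 values were negative, against 7489 of the 16504 genes tested. DESeq2's Wald test also called 0 higher. The count lower fell in each fit that left out 1 of the 4 libraries compared. Such a fit leaves a group with 1 library, so the fall cannot be laid to the library left out. The count was also smaller without nuclear replicate 1, and larger without either PFA library. In fits without 1 library the value of UBE2S ranged from -1.15 to -1.06 and that of UBE2E2 from -1.67 to -1.03.

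UBE2T was at 17.7 and 13.7 CPM in the native libraries, near its nuclear level, and changed by -1.69 (SE 0.31, adjusted p = 0.00781 by edgeR) against the cytosol. UBE2L6 was at 6.55 and 9.72 CPM and changed by -1.62. UBE2S was at 33.8 and 31.7 CPM and changed by -1.10. The UBE2E family was lower throughout, with UBE2E1 at 44.6 and 41.8 CPM, UBE2E2 at 10.2 and 15.9 and UBE2E3 at 16.8 and 13.6. UBE2D2 was at 65.6 and 55.4 CPM (-1.08) and UBE2N at 49.7 and 46.6 CPM (-1.03). Both RAD6-type enzymes fell here, UBE2A at 32.0 and 31.4 CPM (-0.95) and UBE2B at 13.7 and 16.7 CPM (-1.40).

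The other genes called between the fractions were not called between the native lamina and the cytosol. UBE2M was at 74.6 and 59.1 CPM in the native libraries and UBE2D3 at 91.3 and 104. UBE2V1 was at 64.1 and 68.8 CPM and UBE2V2 at 15.0 and 21.4. All 4 lay below both cytosolic libraries, which with 2 libraries in each group is not a test. The share of all genes that lay so was not computed. Of the enzymes of degradative chains and the endoplasmic reticulum UBE2G2 was at 82.2 and 81.0 CPM (-0.26), UBE2J1 at 49.3 and 54.2 CPM (-0.49) and UBE2R2 at 58.9 and 77.8 CPM (-0.55). UBE2G1 was at 49.9 and 43.8 CPM (-0.97) and UBE2K at 92.4 and 91.1 CPM (-0.60). UBE2H was at 37.5 and 52.3 CPM, and UBE2O, at 138 and 159 CPM, had the value nearest to 0 of the 31 (-0.15).

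Against the nuclear fraction 1 UBE2 gene was higher in the native preparation and 2 were lower, where 3.87% of all genes were higher and 3.44% lower. The median was 0.27 against -0.07. UBE2Q1 was at 52.1 and 47.3 CPM, above both nuclear libraries and below both cytosolic ones, and changed by 1.09 (SE 0.28, adjusted p = 0.0389 by edgeR). UBE2B was below both fractions, with a change of -1.29 (SE 0.31, adjusted p = 0.0302 by edgeR). UBE2W was at 18.3 and 22.1 CPM and changed by -1.03 (SE 0.29, adjusted p = 0.0481 by edgeR), which left it below both nuclear libraries. Each of these 3 calls was lost when either native library or either nuclear library was left out, and without either cytosolic library 0 were higher and 1 lower. Without PFA replicate 1 or replicate 2, 5 and 3 were higher. With total counts as the scale 5 genes were higher and 1 lower, and with only the 4 libraries compared 6 were higher and 2 lower. UBE2B was thus the gene called lower in the native lamina than in each fraction.

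**Figure D2:**
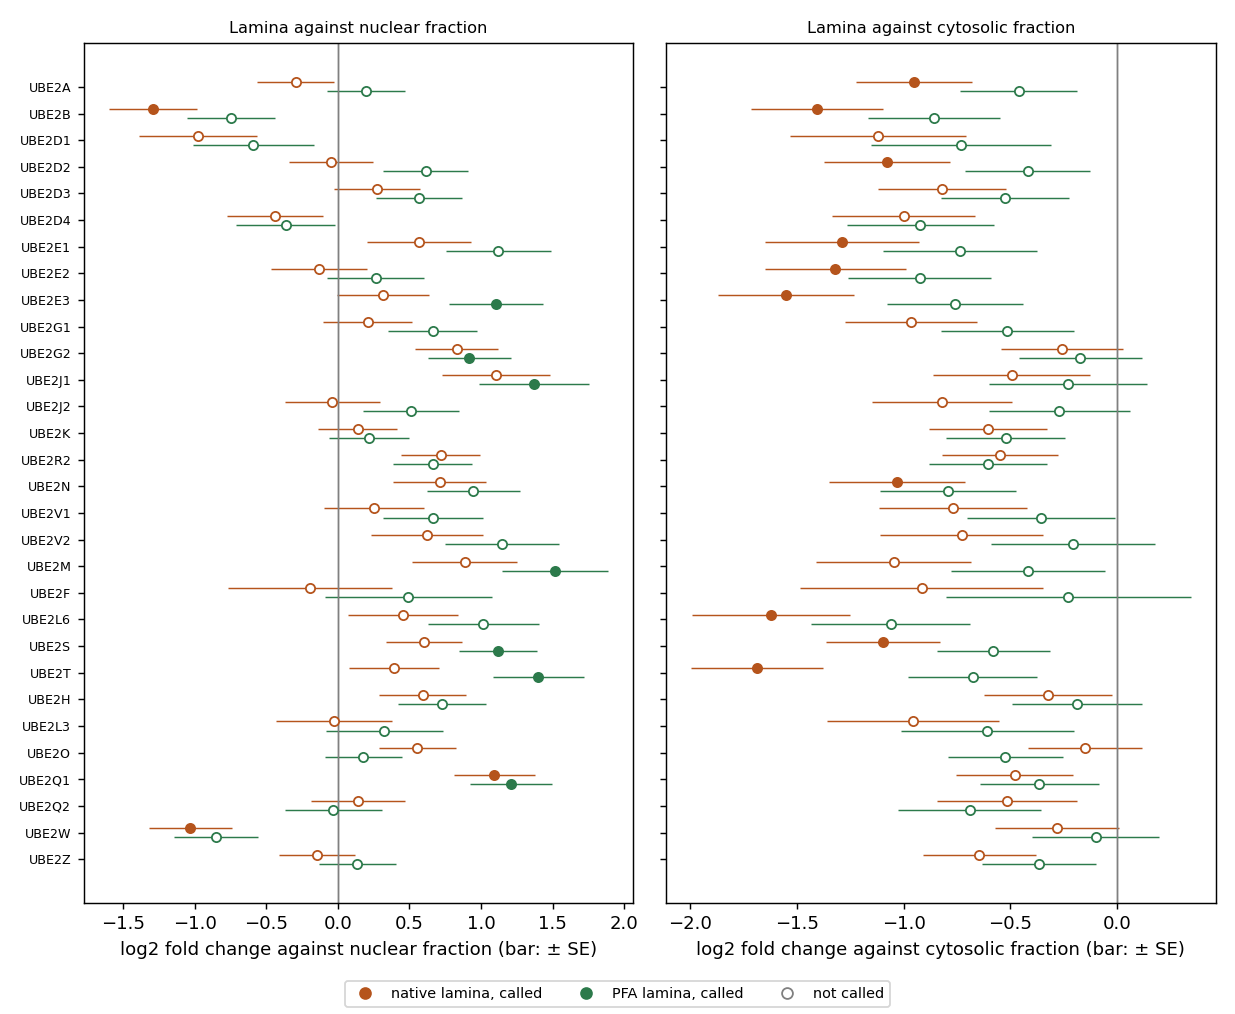
Log2 fold change of 30 UBE2 genes in the native and PFA lamina preparations against the nuclear fraction (left) and the cytosolic fraction (right), with bars of 1 SE and 2 libraries in each group. All points of the right panel lie below 0, while most points of the left panel lie above it, with UBE2M at 1.52 in the PFA lamina.

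In the PFA preparation 7 UBE2 genes were higher than in the nuclear fraction and 0 lower by edgeR's test, with 13 higher and 2 lower at an unadjusted p under 0.05 and 0 lower by DESeq2's Wald test. Over all genes 9.63% were higher and 7.81% lower by the adjusted p, and 2887 and 2832 of 16504 at the unadjusted threshold. The median was 0.66 against -0.04. UBE2M was at 110.1 and 96.7 CPM and rose by 1.52 (SE 0.37, adjusted p = 0.0197 by edgeR). UBE2T was at 36.8 and 26.1 CPM and rose by 1.40 (SE 0.32). Both PFA libraries of each gene lay above both nuclear ones and below both cytosolic ones.

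UBE2S at 48.4 and 45.2 CPM, UBE2Q1 at 61.7 and 45.6 CPM and UBE2E3 at 29.9 and 22.4 CPM rose by 1.12, 1.21 and 1.11 against the nuclear fraction. UBE2G2 was at 106 and 67.0 CPM and rose by 0.92 (adjusted p = 0.0456 by edgeR). UBE2J1 was at 89.3 and 33.5 CPM, so its replicate 2 stood only a little above the nuclear libraries, and rose by 1.37 (SE 0.38). UBE2W, at 21.6 and 24.3 CPM, and UBE2B, at 26.4 and 17.3 CPM, had negative values of -0.85 (adjusted p = 0.0616) and -0.75 (adjusted p = 0.107) and did not pass edgeR's test.

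Several genes without a call in the PFA lamina, UBE2L6 to UBE2O in this paragraph, lay between both fractions by their mean. The share of all genes that lay so was not computed, and the PFA libraries of some lay far apart. UBE2L6 was at 13.7 and 9.93 CPM, UBE2E2 at 17.6 and 16.6 and UBE2A at 50.1 and 38.6. UBE2D2 was at 119 and 71.7 CPM and UBE2D3 at 142 and 97.5. UBE2G1 was at 83.2 and 44.1 CPM, UBE2R2 at 73.0 and 58.1 and UBE2K at 116 and 77.3. In each of UBE2D2, UBE2G1 and UBE2K replicate 1 was the higher library. UBE2H was at 59.9 and 37.9 CPM and UBE2O at 103 and 126, and UBE2O was 1 of the 3 genes with the higher level in replicate 2. Over all 8 libraries the 7 genes without a call in any comparison ranged from 6.25 to 20.3 CPM for UBE2D1, from 12.8 to 33.8 for UBE2D4 and from 2.95 to 16.4 for UBE2F. UBE2J2 ranged from 23.7 to 55.0 CPM, UBE2L3 from 21.7 to 72.5, UBE2Q2 from 22.8 to 51.4 and UBE2Z, the E2 loaded by UBA6, from 66.6 to 115.

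The PFA libraries differed from each other across the UBE2 genes. Replicate 1 was higher than replicate 2 in 28 of 31, with a median difference of 0.60 on the log2 scale. The same count over all genes was not made, so a difference particular to the UBE2 genes cannot be read from it. UBE2E1 was at 90.4 and 34.9 CPM, UBE2N at 75.2 and 37.2, UBE2L3 at 68.9 and 21.7, UBE2V1 at 121 and 55.2 and UBE2V2 at 35.3 and 15.8. MALAT1 moved the opposite way, with 0.0550% of counts in PFA replicate 1 and 0.361% in replicate 2. In the cytosolic libraries it took 0.0817% and 0.0794%. Over all genes tested, log2 levels of PFA replicate 1 correlated (Pearson) at 0.959 and 0.954 with the cytosolic libraries. They correlated at 0.916 with PFA replicate 2, at 0.951 and 0.908 with the native libraries and at 0.798 and 0.811 with the nuclear ones. PFA replicate 2 had the lowest total count of the 8 libraries. The part of these differences between libraries in the result was not tested. Without PFA replicate 2, 18 UBE2 genes were higher than in the nuclear fraction, and without PFA replicate 1 only 1 was. Without nuclear replicate 1 none was called higher, and without nuclear replicate 2, 1 was. With only the 4 libraries compared, none was called. Calls over all genes in these fits are not given here, so these shifts cannot be read as particular to the UBE2 genes.

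PFA lamina and cytosolic libraries gave no call among the UBE2 genes by edgeR's test, with 9 lower and 0 higher at an unadjusted p under 0.05 and 0 calls by DESeq2's Wald test. Calls were rare over all genes too, at 0.527% higher and 0.145% lower, with 1421 lower and 2135 higher of 16504 at the unadjusted threshold. All 31 values were negative, from -1.06 for UBE2L6 to -0.10 for UBE2W, with a median of -0.52 against 0.08 over all genes. Of the 16504 genes tested 7556 had a negative value. Without PFA replicate 1, 8 genes were called lower.

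Between the PFA and native preparations no UBE2 gene was called by edgeR's test or DESeq2's Wald test, and 0% of all genes were called higher and 0% lower by edgeR. At an unadjusted p under 0.05, 3 were higher and 0 lower, against 897 and 924 of the 16504 genes tested. Positive values were found in 28 of 31, against 8897 of the 16504, with a median of 0.39 against 0.06 over all genes. PFA replicate 1 was above native replicate 1 in 30 of 31 genes, while PFA replicate 2 was above it in 14. These pairs of libraries were not counted over all genes. Without PFA replicate 2, 2 genes were called higher. The largest value among the 31 was that of UBE2T, 1.01 (SE 0.31, adjusted p = 0.319 by edgeR).

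**Figure D3:**
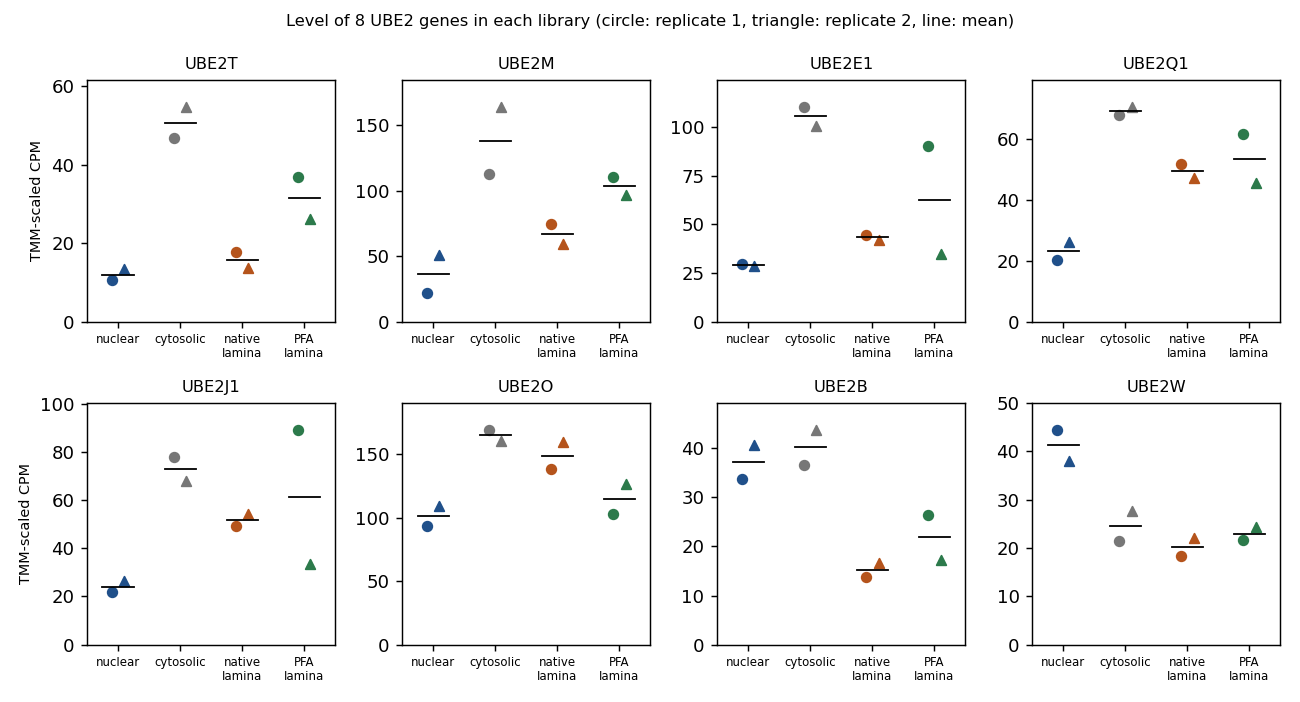
TMM-scaled CPM of 8 UBE2 genes in each library, with circles for replicate 1, triangles for replicate 2 and a line at the mean of 2 libraries. UBE2B is lowest in the native lamina, UBE2W is highest in the nuclear fraction, and UBE2E1 and UBE2J1 show the distance between the PFA libraries.

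The changes went with exonic length among the UBE2 genes. In the native lamina against the cytosol the Spearman correlation with length was 0.71 over the 31 genes, against 0.22 over all genes tested, and short genes had the more negative values. UBE2T, with 912 exonic bases, and UBE2L6, with 1743, stood at the low end, and UBE2O, with 5355, and UBE2W, with 9088, near 0. Between the PFA and native preparations the correlation was -0.74, against -0.33 over all genes. It was 0.48 for nuclear against cytosolic (all genes 0.07), -0.42 for PFA lamina against nuclear (all genes -0.06) and -0.06 for native lamina against nuclear (all genes 0.18). The points share their libraries, so these are descriptions, and the part of length in the calls was not tested.

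**Figure D4:**
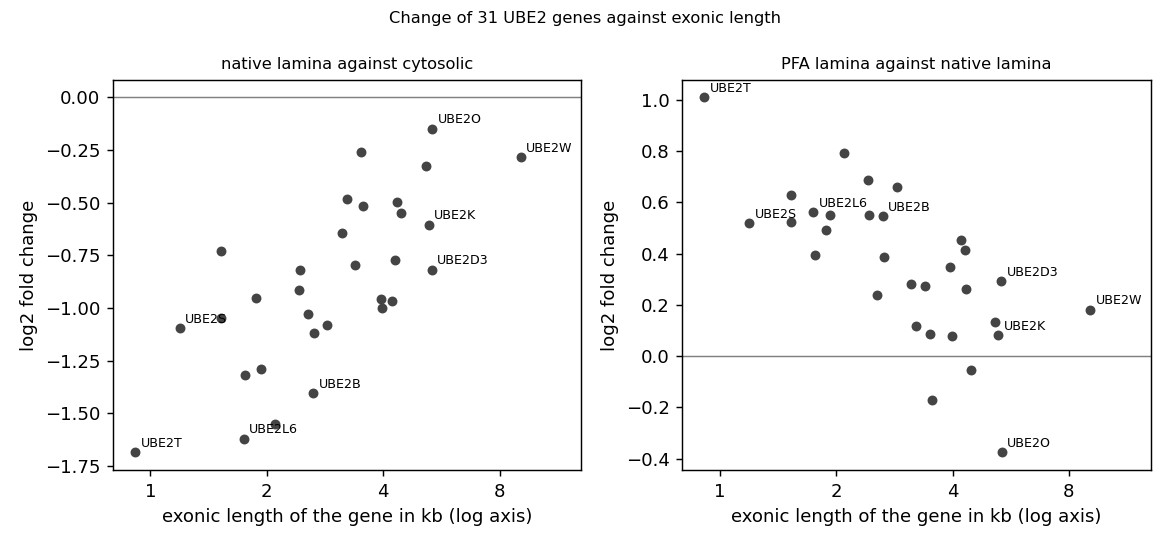
Log2 fold change of 31 UBE2 genes against exonic length (log axis, kb), for native lamina against cytosolic (left) and PFA lamina against native lamina (right). Points rise from UBE2T to UBE2W and UBE2O on the left and fall from UBE2T to UBE2O on the right.

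Other genes of the pathway were read from lists, and each count of calls stands beside the share over all genes tested. Of the 14 tested ubiquitin and ubiquitin-like modifier genes, 9 were lower in the nuclear fraction than in the cytosol and 1 was higher. The median was -1.82, and 21.2% of all genes were lower and 26.1% higher. Among those that fell were SUMO3 (-2.57), the polyubiquitin gene UBB (-2.50) and RPS27A (-2.05), which encodes ubiquitin fused to a ribosomal protein. The 1 higher, SUMO4, had 10 to 24 counts in the nuclear libraries and 1 in each cytosolic one. In the native lamina 7 were lower than in the cytosol (all genes 6.77%), among them RPS27A (-2.43), SUMO2 (-1.91) and FAU (-1.76). Against the nuclear fraction UBB rose by 1.45 in the native and by 1.83 in the PFA lamina, where SUMO3 (1.67) rose too.

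Of 10 E1 genes, 3 were lower in the nuclear fraction and 1 higher, which with 10 genes is not far from the shares over all genes (21.2% and 26.1%). The SUMO-activating pair SAE1 (-1.59) and UBA2 (-1.48) fell, as did UBA1 (-1.45), the main ubiquitin E1. The 1 higher in the nuclear fraction was UBA7, the E1 of ISG15, at 4.05 and 7.04 CPM in the nuclear and 0 counts in both cytosolic libraries, and it was also called higher in the native lamina than in the cytosol. UBA7 and its E2 partner UBE2L6 were thus called in opposite directions between nucleus and cytosol. In the PFA lamina SAE1 (1.40) and UBA1 (1.00) were higher than in the nuclear fraction.

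Of 10 genes with an E2 fold under other symbols, 5 were lower in the nuclear fraction (all genes 21.2%): UBE2NL (-2.33), UFC1 (-2.11), TSG101 (-1.74), CDC34 (-1.37) and ATG3 (-1.36). UBE2NL, with 5 to 31 counts, is a near copy of UBE2N, and how reads were split between them is not known. UFC1 (-1.69) and TSG101 (-1.45) were lower in the native lamina than in the cytosol. In the PFA lamina ATG3 (1.29) was higher and AKTIP (-1.35) lower than in the nuclear fraction. In the cullin-RING core 5 of 14 fell in the nuclear fraction (all genes 21.2%), led by RNF7 (-2.09), DDB1 (-1.72), RBX1 (-1.56) and CUL4B (-1.21). Against the cytosol the native lamina was lower in RBX1 (-2.28), RNF7 (-1.55), SKP1 (-1.49) and DDB1 (-1.05), 4 of 14 where 6.77% of all genes were lower. SKP1 fell in the native lamina against the nuclear fraction as well (-1.29), as UBE2B did. In the PFA lamina RNF7 (1.40) and DDB1 (1.05) were higher than in the nuclear fraction, and DCUN1D1 (-1.11) and CUL5 (-0.87) lower, where 9.63% of all genes were higher and 7.81% lower.

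Among 37 ligases that pair with UBE2 enzymes, 7 were lower and 5 higher in the nuclear fraction, near or under the shares over all genes (21.2% and 26.1%), and the median was -0.15. RMND5A (-1.76) and CBL (-1.21) fell. The membrane ligases MARCH6 (1.47) and SYVN1 (1.43), which work with UBE2J2, UBE2J1 and UBE2G2 at the endoplasmic reticulum, were higher. In the native lamina RMND5A (1.62) and CBL (1.54) were higher than in the nuclear fraction, and MARCH6 (1.02) higher than in the cytosol. In the PFA lamina RMND5A (1.39), RNF40 (1.10) and CBL (0.93) were higher and MARCH6 (-1.11) lower than in the nuclear fraction. Among 25 deubiquitinases and proteases of ubiquitin-like proteins 10 were lower and 0 higher in the nuclear fraction by edgeR (all genes 21.2% and 26.1%). At an unadjusted p under 0.05, 14 were lower and 1 higher, against 4055 and 4981 of the 16504 genes tested. The 10 were led by COPS5 (-1.84), which removes NEDD8, USP22 (-1.69), the SUMO protease SENP3 (-1.31) and UCHL3 (-1.30). Against the nuclear fraction USP22 (1.27) and SENP3 (1.00) rose in the native lamina, and against the cytosol UCHL1 (-1.31) fell. In the PFA lamina 5 were higher than in the nuclear fraction (all genes 9.63%), among them COPS5 (1.81), USP22 (1.24), OTUB1 (1.20) and SENP3 (1.18), and USP34 (-0.95) was lower.

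Sequence shared with other rows limits some of the values. Strand was ignored in the counting, and UBE2D4 shares 16.5% of its exonic bases with the antisense gene POLR2J4. UBE2F shares 23.6% with UBE2F-SCLY and UBE2G1 11.0% with LOC103021295. UBE2L3, UBE2D3 and UBE2Q1 share 5.17%, 3.73% and 1.58% with other rows. The processed copy UBE2MP1 had 46 to 366 counts, UBE2E4P 17 to 130 and UBE2Q2P1 28 to 140, and reads that fit both a gene and its copy cannot be told apart.

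The genes were also placed against the lamina-associated domains deposited for HCT116, a colorectal carcinoma line, on hg19. None of the 32 lay wholly or partly in a domain in G1, S or G2. Over all genes on 1 chromosome, 7.94% lay wholly or partly in a domain in G1, 6.81% in S and 9.51% in G2. Those wholly inside were 6.73%, 5.92% and 8.26%. At such shares only a few of 32 genes would lie in a domain. The median distance of the UBE2 genes to the nearest domain of any stage was 1.90 Mb, and the nearest was UBE2D1 (chromosome 10, 60094739 to 60130513) at 0.195 Mb. UBE2B, at 133706867 to 133727799 on chromosome 5, lay outside as well. The domains come from another cell line and carry no replicate spread, so this is a description.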

How the data were processed

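RNA counts came from 8 HEK293FT libraries in 4 groups of 2. Per the file headers, the authors made the deposited counts with featureCounts 1.5.2 on hg19 RefFlat genes, with strand ignored and reads that overlap several genes counted for each. The submitters' processing notes name TopHat2 2.1.1 and Bowtie2 2.3.2. The deposited tables also give exonic length, and the domain lists give intervals alone.

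Genes were filtered with filterByExpr by group and tested with edgeR 4.0.16 (R 4.3.3) after TMM scaling, by the quasi-likelihood test of 6 contrasts in a joint fit of the 8 libraries, with Benjamini-Hochberg adjustment. The script was tested on simulated data. Alternatives were other scalings and filters, DESeq2 1.42.0, a replicate block, the 4 libraries compared alone, and leaving out each library. Members called anywhere were to be given by library. The plan set at most 4 called genes per pathway list, and more were named from some lists. Members and lists were chosen with earlier results of these data known. Some genes of the pattern and the lists are not reported here by name, and libraries without a clear group were not used.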

Additional observations from a re-analysis of the deposited data

How the results depend on the processing

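No UBE2 gene changed sign in a comparison in which it was called, in any of the 16 alternatives. Nuclear against cytosolic, the count higher was 0 with DESeq2's Wald test, without the filter and with total counts, and the median was -0.88 with at least 10 counts in every library and -0.82 with upper-quartile factors. Native lamina against cytosolic, 18 were lower in a fit of just the 4 libraries and 4 on the scale of total counts, and the median was -0.95 with the Wald test, -0.81 with at least 10 counts, -0.87 without the filter, -0.66 with total counts and -0.80 with upper-quartile factors. Native lamina against nuclear, 3 were higher without the filter, 6 with only the 4 libraries and 5 with total counts, 1 was lower with total counts, and the median was then 0.57. PFA lamina against nuclear, 0 were higher with only the 4 libraries, and 1 and 2 were lower with at least 10 counts and upper-quartile factors. Total counts moved the median of all genes from 0.10 to 0.39 in native lamina against cytosolic and from -0.07 to 0.22 in native lamina against nuclear. Upper-quartile factors moved it from 0.13 to 0.40 in nuclear against cytosolic. The cause of these shifts was not tested. Calls over all genes under the alternatives are not given here, so a shift in a count of UBE2 genes cannot be read as particular to them.

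Leaving out 1 library at a time gave 10 to 25 lower and 0 to 1 higher for nuclear against cytosolic, with medians from -1.16 to -0.94. Native lamina against cytosolic gave 0 to 19 lower and medians from -1.03 to -0.80, and against nuclear 0 to 5 higher, 0 to 2 lower and medians from 0.089 to 0.54. PFA lamina against nuclear gave 0 to 18 higher, against cytosolic 0 to 8 lower with medians from -1.01 to -0.29, and against native lamina 0 to 2 higher with medians from -0.14 to 0.66. Where a group is left with 1 library, it is assumed to vary like the others.

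Replicate numbers were not taken as pairs, since the labels do not say what a shared number marks. Same-numbered deviations correlated at 0.33 between native and PFA lamina and at 0.29 between nuclear and cytosolic. In the other pairs of groups they correlated at -0.05 to 0.16. With a replicate block 22 genes were lower and 1 higher for nuclear against cytosolic, 12 lower for native lamina against cytosolic (median -0.95), 1 higher and 2 lower against nuclear, and 8 higher and 1 lower for PFA lamina against nuclear.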
